A study of Mus musculus with 2 samples.

Results

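The genes described here carry cholesterol from the lysosome to its export or storage in sorted mouse retinal microglia. They were chosen by name as 10 genes along that route, and 9 of the 10 had a row among the 13549 genes of the count table. *Nr1h3*, which encodes LXRα, had no row and is not analysed here. *Lipa*, *Npc1* and *Npc2* act in the lysosome, *Nr1h2* encodes the sterol-sensing receptor LXRβ, *Abca1*, *Abcg1* and *Apoe* serve efflux, and *Soat1* and *Plin2* serve storage.

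Both groups came from mice of the genotype CD11c-Cre-gfp;Rosa-TDTom at postnatal day 5, in which the promoter of CD11c, the integrin subunit encoded by *Itgax*, drives a Cre-GFP, and Cre permanently switches on the TdTomato reporter. Cells with GFP and TdTomato (Cd11c-active, 4041 cells) and cells with TdTomato alone (Cd11c-lineage, 5441 cells) were obtained by flow sorting of 8 retinas with both sexes at 4 each, and each group gave 1 library, so that cells of both groups share, by design, a history of Cre activity. The first group used the promoter when sorted, and the second had used it before, as far as the reporters mark this. With 1 library per group the difference has no replicate check, no p-value is given, and each comparison is between these libraries and not between the conditions.

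Microglia, the resident macrophages of nervous tissue, engulf dying cells and thereby take in membrane cholesterol and cholesteryl esters. In the lysosome the esters are cleaved by acid lipase, and the free sterol is handed by NPC2 to the membrane protein NPC1, which exports it. Oxysterols made from excess cholesterol activate the LXR receptors, which pair with RXR and switch on transporters and apolipoproteins that load cholesterol onto lipoprotein particles, while cholesterol that is not exported is re-esterified and kept in lipid droplets.

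LXR and RXR bind a direct repeat of a 6-base half-site with a spacer of 4 bases, spelled here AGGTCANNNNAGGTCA. RefSeq promoter windows of GRCm38.p6 were found for 8 of the 10 genes, *Nr1h3* included, and the 250 bases before each start were searched for this repeat on both strands. The *Abca1* window is shown in full because *Abca1* is the textbook LXR target and the transporter with the most reads here. It lies at chr4:53159896-53160145 on the minus strand and is printed on the strand of the gene, with capitals for the 16 bases nearest to the repeat, which run from 67 to 52 bases before the start.
Abca1: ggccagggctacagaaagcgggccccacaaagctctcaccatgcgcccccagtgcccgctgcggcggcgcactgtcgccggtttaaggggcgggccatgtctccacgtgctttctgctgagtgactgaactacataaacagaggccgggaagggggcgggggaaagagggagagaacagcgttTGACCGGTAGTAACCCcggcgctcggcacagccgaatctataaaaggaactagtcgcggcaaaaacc

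Read on the opposite strand, the *Abca1* stretch matched 9 of the 12 fixed letters of the repeat. The closest stretch of each gene is set out below on the strand where it matched, with capitals for the letters that equal the repeat.
Abca1: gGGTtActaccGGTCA
Apoe: gaGTCAgagcAGGTgg
Lipa: AGccCAgcccAGGcCt
Nr1h2: AGtTCcggaaAGtTCt
Nr1h3: AGGTCccggcAcGgCc
Plin2: AGtcCAgcccAGcaCA
Soat1: AGGaCcaccaAtGgCA
Npc2: tcGgCAgttagGGaCA
*Apoe*, *Lipa*, *Nr1h2*, *Nr1h3*, *Plin2* and *Soat1* matched 8 letters and *Npc2* matched 7. Of all 32851 promoter windows, 18.5% held a stretch with at least 9 letters, 70.6% one with at least 8 and 99.5% one with at least 7. These shares are per window, while the stretch of *Apoe* is the closest over 3 windows and that of *Nr1h3* over 2. The matches are descriptions of these letters, and binding was not measured.

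The libraries held 12943998 reads (Cd11c-active) and 13402625 reads (Cd11c-lineage). All 10 microglial markers examined, among them *Csf1r* and *Cx3cr1*, had reads in both libraries, with 22381 and 21047 CPM in sum. Of these 10, 0 were past 2-fold, beside 9.57% of all genes with at least 1000 reads, a number that all 10 reached. *Itgax*, whose promoter drove the sort, stood at 195 and 121 CPM, where CPM is the count scaled to a common library size with TMM factors, which take most genes as unchanged. The 10 endothelial markers were all higher by 2-fold or more in Cd11c-active, with 818 CPM in sum against 73.7, and 6 of them (*Cldn5*, *Flt1*, *Tek*, *Emcn*, *Vwf* and *Esam*) had 0 reads in Cd11c-lineage. The 6 pericyte markers summed to 62.8 and 2.21 CPM, with 4 of the 5 that had at least 20 reads higher by 2-fold or more and 1 lower. The 9 retinal neuron markers with a row summed to 137 and 234 CPM, with 1 higher and 4 lower by 2-fold or more, among them *Pdc* with 0 and 476 reads. Müller glia and astrocyte markers summed to 2440 and 2489 CPM, mostly from *Glul*, which microglia also express, and *Gfap*, *Aqp4* and *Aldh1l1* had no row. Of the 6 with at least 20 reads, 4 were higher by 2-fold or more and 1, *Slc1a3* with 73 and 642 reads, was lower. Of the 8 monocyte and border macrophage markers with a row, 6 were lower by 2-fold or more in Cd11c-active. The other 2, *Fn1* and *Ccr2* (35 and 0 reads), were higher by 2-fold or more. The 6 lower were *Mrc1* with 262 and 1230 reads and *Cd163*, *Lyve1*, *F13a1*, *Plac8* and *Ms4a7* with 0 reads in Cd11c-active. Of all genes, 87.5% with 20 to 49 reads had 0 in 1 library, 37.9% with 100 to 199 and 10.1% with 200 to 399. The 8 markers summed to 395 and 296 CPM, mostly from *Fn1*, with 371 and 156 CPM. Of the dendritic list only *Zbtb46* had a row, with 200 and 0 reads. The marker counts stand beside large shares of all genes where reads were few. Of all genes with 20 to 49 reads over both libraries, 97.1% were past 2-fold, and 88.5% of those with 50 to 99. The share was 74.6% at 100 to 199 reads and 56.6% at 200 to 399. It was 39.2% at 400 to 799 reads, 21.7% at 800 to 1599 and 8.94% at 1600 to 3199. The part of cells of these types in the results was not tested. In bulk RNA, fewer cells of a type and less RNA per cell cannot be told apart.

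Ratios below are log2 of Cd11c-active over Cd11c-lineage with 0.5 reads added, each with an exact 95% counting interval, which covers counting error only. The ratio of genes between these libraries spread widely when reads were few. Of the genes that reached 20 reads in sum, 44.9% differed by 2-fold or more (23.3% higher and 21.6% lower in Cd11c-active), against 9.57% of the 4619 genes with at least 1000 reads and 1.69% of the 709 genes with at least 6400. Each gene is therefore set beside the middle 95% of all genes in the same range of reads. All 9 genes lay inside that range.

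Of the 9 genes, 1 was past 2-fold, *Nr1h2*, which was higher in Cd11c-active. The other 8 had log2 ratios between -0.20 and 0.36. The median over the 9 was 0.19, beside 0.0052 over all 13037 genes tested, with 8 ratios above 0 and 1, that of *Abca1*, below. All 9 had over 1000 reads, where 9.57% of genes were past 2-fold in either direction and 5.43% were higher, and 1 of 9 is near these shares. Together they took 1.73% of Cd11c-active reads and 1.74% of Cd11c-lineage reads.

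**Figure D1:**
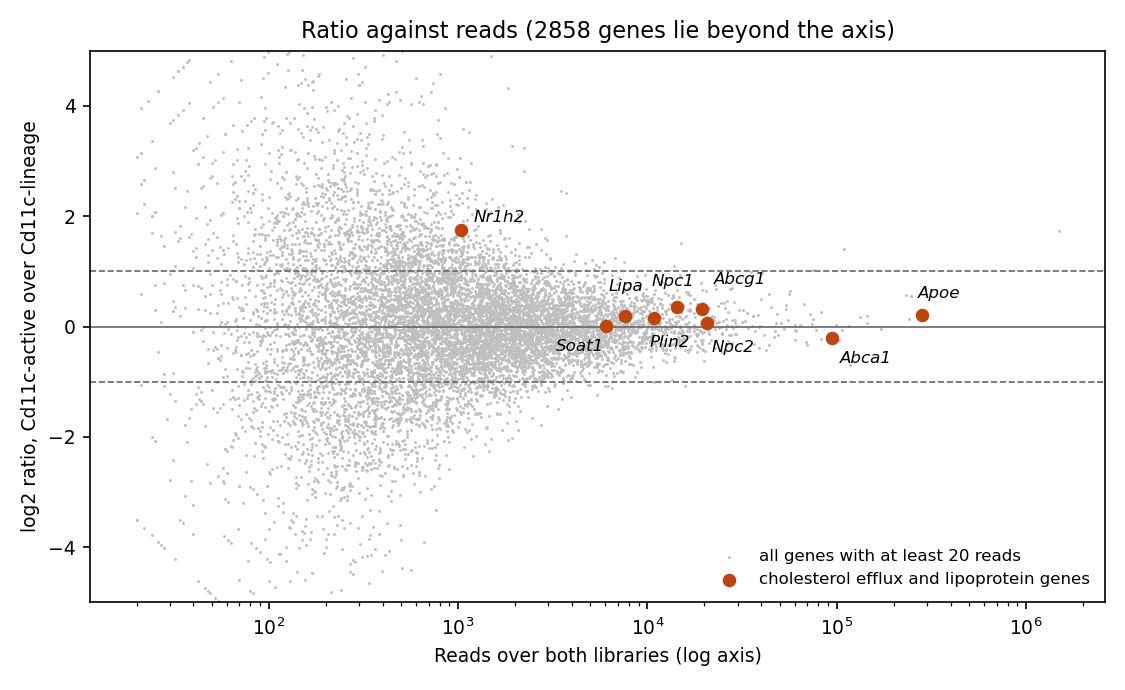
Log2 ratio of Cd11c-active over Cd11c-lineage (vertical) against reads over both libraries (horizontal, log axis) for each gene with at least 20 reads (grey) and the 9 genes described here (orange), with dashed lines at 2-fold; 2858 genes lie beyond the vertical axis. The other 8 sit close to 0 at the well-measured end, while *Nr1h2*, with 1035 reads, sits in the broad part of the cloud.

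In the lysosome, the 3 release genes were present at like levels in both libraries. *Lipa* (ENSMUSG00000024781), the acid lipase that frees cholesterol from its esters, had 3815 and 3808 reads in the Cd11c-active and Cd11c-lineage libraries, in that order here and below, which is 309 and 271 CPM. Its log2 ratio was 0.19 (0.12 to 0.25), against a middle 95% from -0.73 to 0.76 among the 457 genes with 6400 to 12799 reads. The levels were thus near each other, and 28.7% of genes in that range had a ratio at least as high.

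*Npc1* (ENSMUSG00000024413), the membrane protein that exports sterol from the lysosome, had 7550 and 6707 reads, or 612 and 477 CPM. Its log2 ratio of 0.36 (0.31 to 0.41) was the highest after that of *Nr1h2*, and 17.9% of the 162 genes with 12800 to 25599 reads had one at least as high. The annotation places *Rmc1* and an antisense RNA over *Npc1* on the opposite strand, and whether the counting used strand is not given in the sources used here. *Npc2* (ENSMUSG00000021242), the soluble carrier that delivers sterol to NPC1, had 9912 and 10772 reads, or 803 and 767 CPM, and a log2 ratio of 0.067 (0.027 to 0.11). In that range of reads the middle 95% ran from -0.57 to 0.75 and held both genes. The sign of *Npc2* turned under scaling to library totals (-0.070) and once a trend on the length and GC content of transcripts was taken out (-0.0089). Summed over the 3 genes there were 21277 and 21287 reads, a log2 ratio of 0.19 (0.16 to 0.21).

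*Nr1h2* (ENSMUSG00000060601), the receptor that senses oxysterols, had 773 and 262 reads, or 62.6 and 18.6 CPM. It was higher in Cd11c-active by a log2 ratio of 1.75 (1.54 to 1.96), or 3.35-fold. The middle 95% of the 1984 genes with 800 to 1599 reads ran from -1.56 to 2.05 and held it, 21.7% of them were past 2-fold, and 3.18% had a ratio at least as high. *Nr1h2* had the fewest reads of the 9 genes. It remained past 2-fold under each scaling run, at 1.61 under library totals and 1.38 after removal of the length and GC trend. In the same libraries the endothelial markers summed to 818 and 73.7 CPM, and their part in the *Nr1h2* difference was not tested.

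The efflux genes included the 2 most abundant of the 9, *Apoe* and *Abca1*, and none of the 3 was past 2-fold. *Abca1* (ENSMUSG00000015243), which passes cholesterol and phospholipid to lipid-poor apolipoproteins, had 41015 and 53577 reads, or 3322 and 3813 CPM. Its log2 ratio was -0.20 (-0.22 to -0.18), with a middle 95% from -0.38 to 1.02 among the 90 genes with 25600 reads or more. Of these 90, 84.4% had a ratio at least as high. *Abca1* turned to 0.036 once the length and GC trend was removed, its longest transcript being 10.3 kb.

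*Abcg1* (ENSMUSG00000024030), which exports cholesterol to mature lipoprotein particles, had 10112 and 9234 reads, or 819 and 657 CPM. Its log2 ratio was 0.32 (0.28 to 0.36), and 20.4% of the 162 genes in its range of reads had one at least as high. The pair of transporters thus had ratios of opposite sign, 0.52 apart on the log2 scale, and both ratios were within the middle 95% of their ranges. After removal of the length and GC trend both were above 0, at 0.036 and 0.33. Per kilobase, the level of *Abca1* was 2.31 times that of *Abcg1* in Cd11c-active and 3.30 times in Cd11c-lineage.

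*Apoe* (ENSMUSG00000002985), the main apolipoprotein of nervous tissue and acceptor of exported cholesterol, had 142760 and 139781 reads. Its share of the reads was 1.10% in the first library (95% limits by Wilson's method 1.097 and 1.109) and 1.04% in the second (1.038 and 1.048). By reads it ranked 3 among all genes in Cd11c-active and 2 in Cd11c-lineage, and per kilobase it ranked 2 in both. Its log2 ratio was 0.22 (0.21 to 0.23), with 32.2% of the 90 most abundant genes at least as high. The sign was not stable to processing, since removal of the length and GC trend gave -0.20, and its longest transcript is short, at 1.41 kb. Without *Apoe*, the summed reads of the other 8 genes gave a log2 ratio of -0.0067 (-0.020 to 0.0069), against 0.13 with it.

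The storage genes were below 2-fold, with levels near each other in both libraries. *Soat1* (ENSMUSG00000026600), which re-esterifies cholesterol in the endoplasmic reticulum, had 2837 and 3200 reads, or 230 and 228 CPM. Its log2 ratio of 0.013 (-0.061 to 0.086) was the only one whose counting interval held 0, and it was -0.12 under library totals and 0.28 after trend removal. *Plin2* (ENSMUSG00000028494), the coat protein of lipid droplets, had 5365 and 5482 reads, or 435 and 390 CPM, a log2 ratio of 0.16 (0.10 to 0.21). That of *Plin2* turned to -0.050 after trend removal. Summed, the pair gave 0.10 (0.061 to 0.15).

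**Figure D2:**
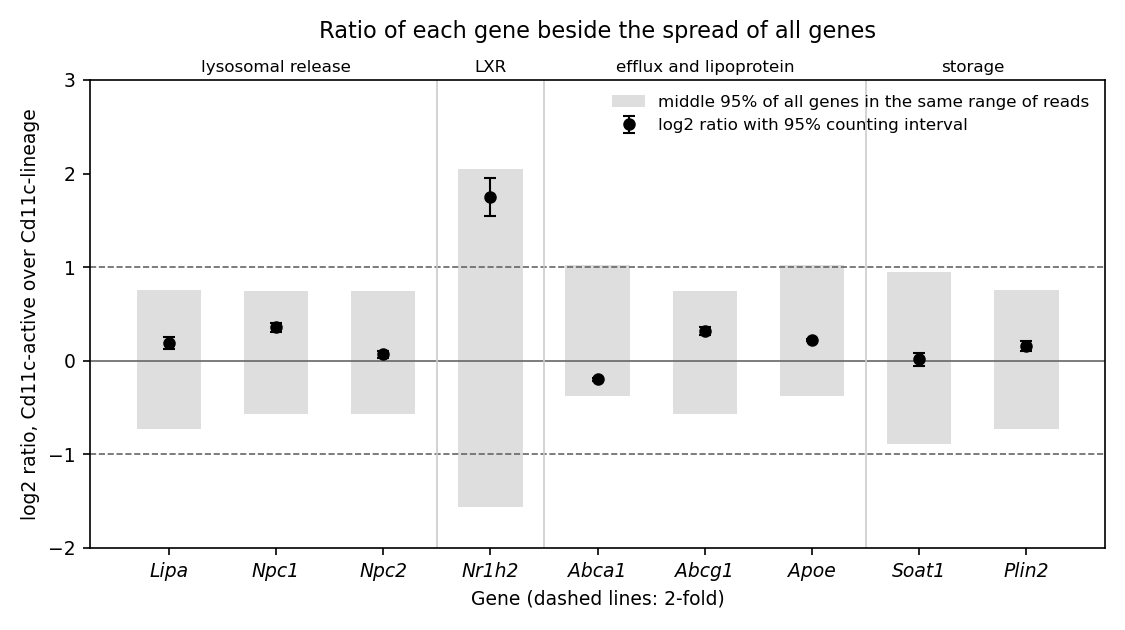
Log2 ratio of Cd11c-active over Cd11c-lineage for each gene (points, with 95% counting intervals) in order of its role, over grey bars for the middle 95% of all genes in the same range of reads; dashed lines mark 2-fold. Every point lies on its grey bar, and only *Nr1h2*, at 1.75, lies above the 2-fold line.

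Levels were compared between genes per kilobase of the longest annotated transcript. Which transcript of each gene was in use was not measured, so the order between genes rests on these lengths. In both libraries the order from the top was *Apoe*, *Abca1*, *Npc2*, *Plin2*, *Abcg1*, *Npc1* and *Lipa*. *Apoe* stood at 8212 CPM per kb in Cd11c-active and 7065 in Cd11c-lineage, and *Abca1* next at 324 and 372, so that the level of *Apoe* was 25.4 and 19.0 times that of *Abca1*. *Npc2* (243 and 232) and *Plin2* (230 and 207) were neighbours with near levels in both libraries. *Abcg1* stood at 140 and 113, *Npc1* at 106 and 82.9, and *Lipa* at 79.3 and 69.6 CPM per kb. *Nr1h2* and *Soat1* closed the order and exchanged places, with *Nr1h2* at 31.3 and 9.33 and *Soat1* at 27.4 and 27.2. The neighbours have no spread over samples to be set against.

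**Figure D3:**
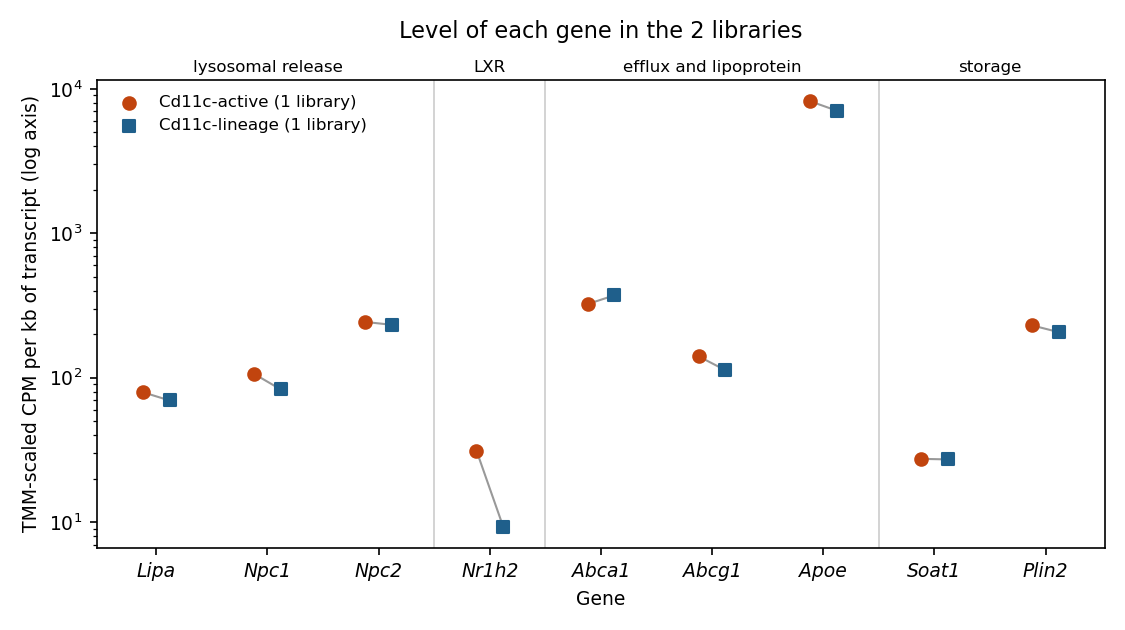
Level of each gene in TMM-scaled CPM per kb of its longest transcript (vertical, log axis) in Cd11c-active (orange circles) and Cd11c-lineage (blue squares), 1 library each, in order of role. *Apoe* stands at 8212 and 7065, above every other gene shown, and *Nr1h2* has the steepest line between the libraries.

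The processing moved several of the small ratios across 0. TMM scaling placed the median of all genes tested 0.14 higher on the log2 scale than library totals did. The ratios of *Lipa*, *Npc1*, *Nr1h2* and *Abcg1* stayed above 0 in all 6 settings, while those of *Npc2*, *Abca1*, *Apoe*, *Soat1* and *Plin2* changed sign in at least 1. The authors' deposited table gives log2 fold changes of 0.053 for *Lipa*, 0.22 for *Npc1*, -0.070 for *Npc2*, 1.61 for *Nr1h2* and -0.34 for *Abca1*. For *Abcg1*, *Apoe*, *Soat1* and *Plin2* the authors' deposited table gives 0.18, 0.081, -0.12 and 0.019. These differ from the ratios under library totals by at most 0.0013, so the distance from the TMM values is that of the scaling.

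**Figure D4:**
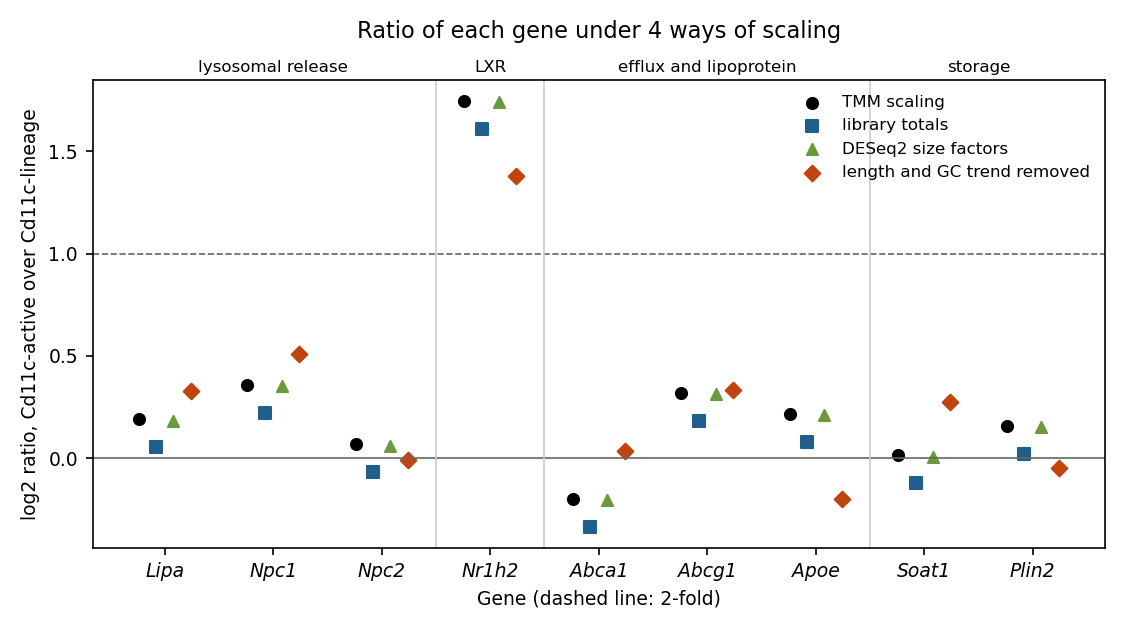
Log2 ratio of Cd11c-active over Cd11c-lineage (vertical) for each gene under TMM scaling, library totals, DESeq2 size factors, and TMM with the trend on transcript length and GC content removed; the dashed line marks 2-fold. *Nr1h2* stays between 1.38 and 1.75, and the points of *Npc2*, *Abca1*, *Apoe*, *Soat1* and *Plin2* lie on both sides of 0.

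A further 91 genes on the route, in 7 lists, were compared in the same way. Of these, 67 had a row and 66 had at least 20 reads, and 15 of the 66 (22.7%) differed by 2-fold or more, 6 higher and 9 lower in Cd11c-active, beside 44.9%, 23.3% and 21.6% of all genes. Of the 41 with at least 1000 reads, 2 did, *Scarb1* and *Nceh1*, beside 9.57%. *Scarb1* and, by a narrow margin, *Vps13c* (1269 and 2673 reads, -0.89, named after its values were seen) were the 2 of the 66 outside the middle 95% of their ranges of reads. The median was 0.033, beside the 0.0052 of all genes tested.

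Other LXR targets had 11 genes measured of 14, with 10 ratios above 0, 1 below and a median of 0.34. *Pltp*, which transfers phospholipid between lipoproteins, was past 2-fold, with 305 and 103 reads and a log2 ratio of 1.75 (1.43 to 2.09). *Scd2*, a fatty acid desaturase, had 13238 and 11217 reads and a log2 ratio of 0.43, *Tnfaip3*, a restraint on NF-kB signalling, had 0.14, and *Mertk*, a receptor for dying cells, had -0.060. The median of the list was 0.20 under library totals and 0.28 after trend removal. *Apoc1* and *Lpl* gave log2 ratios of 0.80 and 0.44, and together with *Pltp* they were the 3 genes measured of the 11 other lipoprotein genes, with a median of 0.80. All 3 are also among the 11 LXR targets measured, so the lists are not separate.

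Among LXR partners and oxysterol enzymes, 7 genes of 11 were measured, with a median of -0.14, and 1 (14.3%, beside 44.9% of all genes) was past 2-fold. This was *Cyp27a1*, which makes the LXR ligand 27-hydroxycholesterol in mitochondria, with 443 and 124 reads and a log2 ratio of 2.02 (1.73 to 2.32). The middle 95% of the 2014 genes with 400 to 799 reads ran from -2.35 to 3.34 and held *Cyp27a1* and *Pltp*. *Rxra*, the partner of LXR on DNA, had 2272 and 1780 reads and a log2 ratio of 0.54 (0.45 to 0.63). The corepressor *Ncor1* had -0.14.

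Lipoprotein receptors had 10 genes measured of 11 and a median of 0.043, and 3 were past 2-fold (30%, beside 44.9% of all genes). *Scarb1*, a receptor for HDL, had 533 and 1926 reads and was lower in Cd11c-active, with a log2 ratio of -1.67 (-1.81 to -1.53), outside the middle 95% of the 1599 genes with 1600 to 3199 reads (-1.14 to 1.24). *Vldlr*, named after its values were seen, had 0 and 55 reads. *Lrp1*, a large endocytic receptor for APOE, had 44118 and 59412 reads and a log2 ratio of -0.24, near that of *Abca1*, and *Mylip*, a ubiquitin ligase, and *Sort1* had 0.27 and 0.049.

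The other ABC transporters had 10 genes measured of 11, a median of -0.24 and 4 past 2-fold (40%, beside 44.9% of all genes). *Abcg3* had 482 and 207 reads, a log2 ratio of 1.40 (1.17 to 1.65), and its reads may be shared with related family copies. *Abca5*, *Abca8a* and *Abcg4*, named after their values were seen, had 0 reads in Cd11c-active and 84, 26 and 45 in Cd11c-lineage. Among all genes with 20 to 49 reads, 87.5% had 0 in either one or the other library, and 71.0% of those with 50 to 99 did. The abundant *Abca9*, *Abca3* and *Abca7* had log2 ratios of -0.31, -0.18 and 0.75.

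Sterol transport between organelles had 15 genes measured of 16 and a median of 0.028. *Gramd1c*, with 35 and 0 reads and named after its values were seen, was the only gene of the list past 2-fold (6.67%, beside 44.9% of all genes). *Lamp1*, *Scarb2* and *Lamp2*, which encode abundant lysosomal membrane proteins, had log2 ratios of 0.50, -0.061 and 0.042. The lipid droplet list had 14 genes of 22 with at least 20 reads and 5 past 2-fold (35.7%, beside 44.9% of all genes), 1 higher and 4 lower. The 4 lower genes lay in the ranges of 20 to 49 and 200 to 399 reads. In those ranges 97.1% and 56.6% of all genes were past 2-fold. The median of the droplet list was -0.52, and 0.55 over the 5 genes with at least 1000 reads. *Nceh1*, which hydrolyses cholesteryl esters outside the lysosome, had 1185 and 674 reads and a log2 ratio of 1.0002 (0.86 to 1.14), at the threshold itself. *Dgat2*, which makes triglyceride, had 52 and 224 reads (-1.91) and *Acsl3*, which activates fatty acids at droplets, had 77 and 205 (-1.22), while *Plin4* and *G0s2*, named after their values were seen, each had 0 and 44. *Acsl4* and *Plin3* had -0.52 and -0.36.

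**Figure D5:**
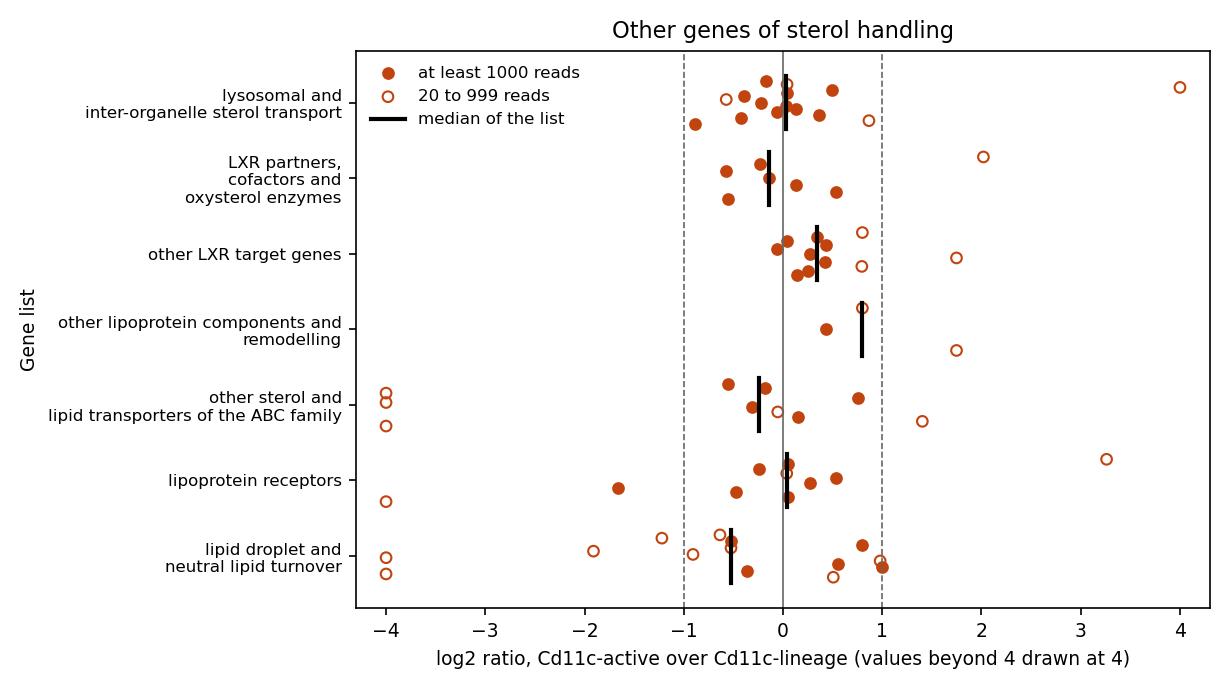
Log2 ratio of Cd11c-active over Cd11c-lineage (horizontal) for the genes of 7 further lists with at least 20 reads, filled where a gene had at least 1000 reads and open below that, with black bars for list medians and dashed lines at 2-fold; values beyond 4 are drawn at 4. Most filled points lie between the dashed lines, and *Scarb1*, at -1.67, is the filled point farthest from 0.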

How the data were processed

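Reads were processed by the authors with cutadapt 3.5, STAR 2.7.9a, featureCounts 1.6.3 and edgeR 4.0.16 on GRCm39, per the submitters' processing notes, which give no settings. Libraries were stranded and depleted of ribosomal RNA, per the labels' protocols. The authors deposited raw counts per gene and a log2 fold change and log2 average CPM, per the file headers. No column of unmapped samples was present (0). A count of 0 allows 3 reads, equal to 0.243 CPM (Cd11c-active) or 0.214 CPM (Cd11c-lineage), for counting error only, as reads are not independent molecules.

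Log2 ratios used edgeR 4.0.16 TMM factors (0.954 and 1.05) in R 4.3.3, a prior of 0.5 reads and Clopper-Pearson 95% intervals from scipy 1.17.1 (Python 3.11.15). With 1 library per group no model could be fitted. Genes needed 20 reads. Alternatives were library totals, DESeq2 1.42.0 size factors, scaling without ribosomal, mitochondrial and 7SK/7SL genes, a length and GC trend fitted on 4612 genes with at least 1000 reads, a prior of 2, a fold of 1.5 and other minimums. Lengths (13499 genes) are of the longest GENCODE M21 transcript (GRCm38). Gene coordinates are not given, and the *Abca1* promoter window has those of RefSeq's GRCm38.p6. The procedure was tested on simulated independent reads, which carry counting error only. That test does not cover the wider spread of genes between these libraries.

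The members and lists were chosen with earlier results of these data known. The text names all members, the 3 genes of each list with the most reads, and those past 2-fold with at least 200 reads, except a few items that are not reported here. The marker lists were microglia, endothelium, Müller glia and astrocytes, retinal neurons, monocytes and border macrophages, dendritic cells and pericytes.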

Additional observations from a re-analysis of the deposited data

How the results depend on the processing

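The count of members past 2-fold was 1 under all 8 alternatives. The median log2 ratio of the members was 0.053 under library totals and 0.28 after removal of the length and GC trend, against 0.19. The count of other pathway genes past 2-fold was 15 of 66 (22.7%), beside 44.9% of all genes. At a minimum of 1000 reads, where fewer genes are counted, it was 2 of 41, beside 9.57% of all genes there. A fold of 1.5 gave 24 of 66, and the share of all genes past that fold was not computed. The ratio of *Npc2* became -0.070 under library totals and -0.0089 after trend removal, and that of *Soat1* -0.12 under library totals. After trend removal *Abca1* became 0.036, *Apoe* -0.20 and *Plin2* -0.050. The list medians that changed sign were organelle sterol transport (-0.11 under library totals, -0.061 at 1000 reads), LXR partners (0.047 after trend removal), lipoprotein receptors (-0.093 under library totals) and lipid droplets (0.55 at 1000 reads). The cause of the changes with scaling and trend was not tested. The trend fell by 0.14 per doubling of length and explained 5.64% of the variance. No paired analysis was possible because each group had 1 library. The counting interval of *Cyp27a1* (1.73 to 2.32) was narrower than the middle 95% of its range of reads (-2.35 to 3.34).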
